A study of Mus musculus with 11 samples.

Results

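Nascent outer hair cells (OHCs) of the embryonic day 16 (E16) mouse cochlea were taken from the single-cell profiles of 3 libraries by a rule on 7 genes. A cell was counted as an OHC when neither Fgf8 nor Tbx2 was detected in it and at least 3 of Atoh1, Myo6, Pou4f3, Ccer2 and Acbd7 were. The rule took 451 of the 7961 cells at E16, of 30634 cells in the whole series, with 127, 205 and 119 cells in replicates 1, 2 and 3. Because measured values of these 7 genes chose the cells, the genes are described without a test and were left out of every comparison.

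All libraries were made from wildtype CD1 mice, from the floor of the cochlear duct, freed with thermolysin from stroma, roof and lateral wall. Cochleae of several animals were pooled for each library, so a library is the replicate and no value belongs to 1 animal. Besides the E16 libraries there were 2 at E14, 4 at postnatal day 1 (P1) and 2 at P7, the last of which carry the replicate numbers 4 and 5. The OHCs were set against 3 other classes of E16 cells and against the cells that passed the same rule at P1. The classes were the 6016 cells with none of the 5 genes (gate-negative cells: 895, 2014 and 3107 by replicate), the 144 cells with at least 3 of the 5 genes and Fgf8 detected (Fgf8-positive HCs: 42, 68 and 34), and 92 gate-negative cells in which Fgfr3 and Prox1 were both detected (Fgfr3/Prox1 cells: 17, 46 and 29), genes that mark the lateral part of the prosensory domain. A further 15 cells with at least 3 of the 5 genes carried Tbx2 but not Fgf8 and entered no class. The E16 libraries held 3828399, 10274769 and 11797815 UMIs in all, with medians of 2478 to 2750 per cell. The 3 shared 6, 10 and 13 cell barcodes pair by pair, and no pair of the 11 libraries shared over 0.958% of the smaller.

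Hair cells (HCs) are the mechanoreceptors of the organ of Corti. A bundle of actin-filled stereocilia on the apical surface carries the transduction channels, and synaptic ribbons at the base release transmitter onto afferent neurons. Inner hair cells (IHCs) pass most of the signal to the brain, whereas OHCs amplify the vibration of the sensory epithelium through the motor protein prestin, which is made only well after the cells have formed. Both kinds arise from Sox2-positive prosensory cells that leave the cell cycle and switch on Atoh1, and a new HC uses Notch ligands to hold its neighbours in the supporting cell fate. Fgf8 and Tbx2 are made by IHCs, which is why their absence was part of the rule.

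The 5 genes of the rule were not detected equally often. Ccer2, a coiled-coil gene of HCs, was detected in 98.7% of the 451 OHCs, and Pou4f3, a POU-domain factor needed for HC survival, in 90.0%. Myo6, an unconventional myosin of the stereocilia base, was detected in 86.3%, Atoh1, the basic helix-loop-helix factor that starts HC formation, in 82.0%, and Acbd7, an acyl-CoA binding protein gene, in 67.2%. The mean level of Atoh1, given here and throughout as CPM (a gene's share of a cell's UMIs times 1000000, averaged within a class for each library), was 632, 677 and 1463 CPM in replicates 1, 2 and 3. Ccer2 had 4972, 5339 and 9478 CPM, so both genes stood highest in replicate 3. Pou4f3 ranged from 1132 to 1766 CPM, Myo6 from 766 to 882 CPM and Acbd7 from 583 to 765 CPM. All 5 genes were present in 196 OHCs (43.5%), exactly 4 in 168 (37.3%) and exactly 3 in 87 (19.3%), and the cells with exactly 3 made up 46 of the 127 OHCs of replicate 1 against 27 of 205 and 14 of 119 in the others.

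OHCs by this rule made up 10.2% of the cells of replicate 1 (exact 95% interval 8.56–12%), 7.29% of replicate 2 (6.35–8.31%) and 3.05% of replicate 3 (2.53–3.64%). The intervals, which cover counting error only, did not overlap, but when 4 of the 5 genes were required the shares were 6.50% in replicate 1 (5.19–8.01%) and 6.33% in replicate 2 (5.46–7.29%), which do overlap. The rule asks for detected transcripts and so depends on depth. When each cell was thinned at random to 1500 unique molecular identifiers (UMIs), the shares were 9.55%, 6.22% and 2.92%. The median OHC held 2408, 3545 and 3847 UMIs by replicate, against 2354, 2377 and 2700 in gate-negative cells and 2726.5, 4332 and 4635.5 in Fgf8-positive HCs. Absence of Fgf8 is subject to the same limit. Of the 144 Fgf8-positive HCs, 44 (30.6%, exact 95% interval 23.2–38.8%) had no Fgf8 UMI left after thinning to 1500. Mitochondrial transcripts were 2.55%, 2.26% and 1.91% of the UMIs of the median OHC, above the 1.93%, 1.61% and 1.40% of gate-negative cells in each library, and their part in the results was not tested.

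For the name hair cell, 8 further HC markers were listed outside the rule, and all 8 were higher than in gate-negative cells. Only Cib2 and Espn, at 10 CPM or more in both classes, could have gone either way. The other 6 (Myo7a, Gfi1, Lhx3, Barhl1, Pvalb and Lhfpl5) averaged under 10 CPM in gate-negative cells. They could be tested only because OHCs had them, so their direction is no test of the name. The name outer rests on less, since 2 genes known from mature OHCs were low. Ikzf2, a zinc finger factor that later keeps the OHC programme, had 9.15, 1.33 and 0 CPM, less than in the gate-negative cells (26.6, 19.5 and 18.2 CPM). Ocm, the calcium buffer oncomodulin, had 0, 4.79 and 12.97 CPM, and Slc26a5, which encodes prestin, was not analysed at E16. Insm1 and Neurod6, early OHC factors, were present at 112, 66.9 and 160.2 CPM and 89.9, 120.5 and 298 CPM. The IHC genes Ccl21a, Nefm and Otof were also higher in OHCs than in gate-negative cells, all 3 having passed the filter on low values through the OHCs alone, as was Rprm, which was listed with them but is named by the study for HCs in general. Of 8 OHC genes tested 5 were higher, 4 of them having passed through the OHCs alone, and 1, Ikzf2, was lower, having passed through gate-negative cells alone. Markers of other cell types differed in level. The summed level of 7 markers of Kölliker's organ, the tall epithelium medial to the HCs, was 354, 512 and 325 CPM against 4476, 5345 and 5309.9 CPM in gate-negative cells, and 8 mesenchymal markers summed to 12, 34.3 and 4.96 CPM against 44.2, 29.5 and 36.6 CPM. The 6 markers of pillar and phalangeal cells, the supporting cells around HCs, summed to 1587, 1719 and 1801 CPM, close to the 1932, 1816 and 1839 CPM of gate-negative cells, where Cryab made up most of both sums and the other 5 were each lower in OHCs by limma. The 6 roof and interdental markers summed to 85.3, 477 and 84.3 CPM against 1547 to 3696 CPM, and in replicate 2 a single cell held 245 of the 526 UMIs of Oc90, one of the 6. The part of these markers in the results was not tested. Summed neuronal markers were higher in OHCs (606 to 653 CPM, 8 genes, with Ntrk2 at 0) than in gate-negative cells (331 to 373 CPM), and the 3 of them that passed the filter, Nefl, Nefm and Isl1, are also expressed by HCs. Haemoglobin transcripts came to 2455 UMIs in the OHCs of replicate 2, 2430 of them in 1 cell.

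The first comparison set OHCs against gate-negative cells of the same library and asked what distinguishes a new OHC from floor cells without these genes. The 1218 cells with 1 of the rule genes, the 117 with 2 and the other HCs were not part of it. Genes higher in OHCs included many of the stereocilia actin core, synaptic vesicle release, calcium buffering and cilia. Genes lower in OHCs included most of those tested for the tectorial membrane and extracellular matrix and among immediate early genes. They also included most of those tested from a list of Notch receptors, modifiers and targets. With the library as a block, limma called 1545 of 8984 genes higher in OHCs (17.2%) and 1588 lower (17.7%) at an adjusted p of 0.05. Of these, 248 were higher and 165 lower by more than 2 on the log2 scale. The median of all genes tested was -0.02, and in 38.7% of them the 3 OHC profiles did not overlap the 3 gate-negative ones, which is the share to set beside each gene said not to overlap. A gene was tested when its mean over both classes reached 10 CPM, so a gene under 10 CPM in gate-negative cells passed through the OHCs alone and had to be higher there. The same held for lower genes under 10 CPM in OHCs and for each later comparison, so for any gene given with a mean under 10 CPM in 1 of the 2 groups the filter fixed the direction, and its p bears on the size and its spread between libraries alone. Log2 differences are of log2(CPM + 10), which understates the change of low genes. Classes chosen by some HC genes were bound to differ in others, and the p-values say only that a difference recurred in the 3 libraries. When the deposited natural log values were averaged instead, 1841 genes were higher and 1162 lower, so that 61.3% rather than 49.3% of the called genes were higher.

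Of 29 listed HC transcription factors outside the rule, 24 passed the filter on low values, 19 were higher in OHCs and 4 lower. Through the OHCs alone passed 10, all higher, and of the 13 at 10 CPM or more in both classes 9 were higher and 3 lower. Barhl1, a homeobox factor needed for HC maintenance, had 248, 202 and 192 CPM in OHCs and 0, 0.427 and 0.277 CPM in gate-negative cells, a difference of 4.44 ± 0.21 on the log2 scale (SE, limma adjusted p = 1.64e-12). Hes6, a Hes-family factor that opposes Hes1, had 1397, 1478 and 1859.8 CPM against 85.6, 86.6 and 76.5 CPM (4.09 ± 0.12, limma adjusted p = 5.77e-16). Lhx3, a LIM homeobox factor of all HC types, had 153, 132 and 157 CPM against 0, 0.182 and 0.111 CPM (3.96 ± 0.22, limma adjusted p = 1.65e-11). For each of these 3 genes every OHC profile lay above every gate-negative profile, and the gate-negative level of Barhl1 and Lhx3 was below 0.5 CPM in each library. Casz1, a zinc finger factor, had 219.8, 167 and 166 CPM against 1.67, 2.47 and 1.08 CPM (4.04 ± 0.21, limma adjusted p = 7.8e-12). Neurod6, a basic helix-loop-helix factor, rose from 0, 0.3 and 0.388 CPM to the levels given above (3.96 ± 0.26, limma adjusted p = 3.35e-10), and Insm1, a zinc finger factor that keeps early OHCs from taking on IHC genes, from 0.33, 0.25 and 0.0628 CPM (3.52 ± 0.25, limma adjusted p = 7.84e-10). The lower factors included Gata3, Six2 and Ikzf2, and Ikzf2, whose direction the filter fixed, differed by -1.27 ± 0.25. Gata3, a factor of the whole sensory domain, still had 270.2, 315 and 335 CPM in OHCs against 429, 334 and 445 CPM.

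Of 6 ligands tested, Dll1, Dll3, Jag2 and Dner, which passed the filter through the OHCs alone, were higher and Jag1 and Mfap2 lower. Dll3, a divergent Delta ligand that acts within the cell that makes it, had 133, 151 and 335 CPM in OHCs and 5.31, 0.745 and 0.325 CPM in gate-negative cells (4.06 ± 0.27 on the log2 scale, limma adjusted p = 2.71e-10). Jag2, a ligand that HCs present to supporting cells, had 169, 100.1 and 100.3 CPM against 1.79, 4.07 and 3.88 CPM (3.30 ± 0.24, limma adjusted p = 9.22e-10). Dll1, the main Delta ligand of HCs, had 44.8, 91.05 and 143 CPM against 0.191, 0.686 and 1.01 CPM (3.15 ± 0.26, limma adjusted p = 8.3e-09). Dll1 and Dll3 were both highest in the OHCs of replicate 3, and no OHC profile of the 3 ligands overlapped the gate-negative profiles. Jag1, the ligand of prosensory and supporting cells, had 38.9, 36.01 and 32.5 CPM against 82.6, 77.4 and 64.9 CPM. Of 16 genes tested from a list of receptors, modifiers and targets, 11 were lower, all at 10 CPM or more in both classes. The 11 were Hes1, Hes5, Hey1, Lfng, Notch1, Notch3, Nrarp and Numb, and Id1, Id2 and Id3, which were listed with them. Mfng, which passed through the OHCs alone, was the only one higher. Mfng, a Fringe glycosyltransferase that alters how Notch responds to its ligands, had 151, 165 and 296 CPM against 3.64, 4.12 and 2.47 CPM (3.93 ± 0.23, limma adjusted p = 3.9e-11). Notch1, the main receptor, had 45.9, 59.02 and 16.6 CPM against 146, 122 and 87.8 CPM (-1.43 ± 0.20, limma adjusted p = 7.81e-06), and neither Mfng nor Notch1 overlapped. Hes1, a repressor that Notch switches on, had 43.2, 40.7 and 479.7 CPM against 190.4, 202 and 2522 CPM, a fall of about the same size in each library although replicate 3 was far above the others in both classes (-2.12 ± 0.13, limma adjusted p = 8.46e-11 with the library as a block and 0.195 without it). The classes overlapped across libraries, since OHCs of replicate 3 lay above gate-negative cells of replicates 1 and 2.

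Of 24 genes of the stereocilia actin core tested, 15 were higher and 4 (Clic5, Fscn1, Pls1 and Pls3) lower. Through the OHCs alone passed 7, and of the 15 at 10 CPM or more in both classes 8 were higher and 2 lower. Also higher were 6 of 8 Usher and link genes, all 4 tested genes of the transduction complex and 3 of 7 further myosins (Myo7a, Myo15 and Myo3a), of which 4, 3 and 3 had passed through the OHCs alone. Lhfpl5 (chr17:28575641-28585679, plus strand on mm10), a transmembrane partner of the transduction channel, had 1027, 1155 and 1449 CPM in OHCs and 0.401, 2.31 and 1.60 CPM in gate-negative cells (6.73 ± 0.16 on the log2 scale, limma adjusted p = 3.57e-17). No gene named in this comparison rose more. Grxcr1 (chr5:68031835-68166398, plus strand), a glutaredoxin-like protein that shapes stereocilia, had 919.8, 837 and 569 CPM against 0.871, 2.35 and 0.755 CPM (6.09 ± 0.18, limma adjusted p = 8.35e-16). Cib2 (chr9:54544794-54560218, minus strand), a calcium-binding partner of the channel, had 1710.0, 1593 and 1597 CPM against 58.96, 46.7 and 44.3 CPM (4.78 ± 0.11, limma adjusted p = 3.03e-17), nearly the same level in the OHCs of all 3 libraries. Espn, the actin bundler espin, had 446, 459 and 538 CPM against 31.4, 47.2 and 38.3 CPM (3.33 ± 0.15, limma adjusted p = 7.31e-13). Tomt, which brings the channel proteins to the bundle, had 74.6, 86.8 and 129 CPM against 0.406, 1.13 and 0.421 CPM (3.29 ± 0.24, limma adjusted p = 9.4e-10). The channel gene Tmc1 was not part of this rise. It had 5.49, 0 and 0 CPM in OHCs and did not pass the filter, and Tmc2 was not analysed here.

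**Figure D1:**
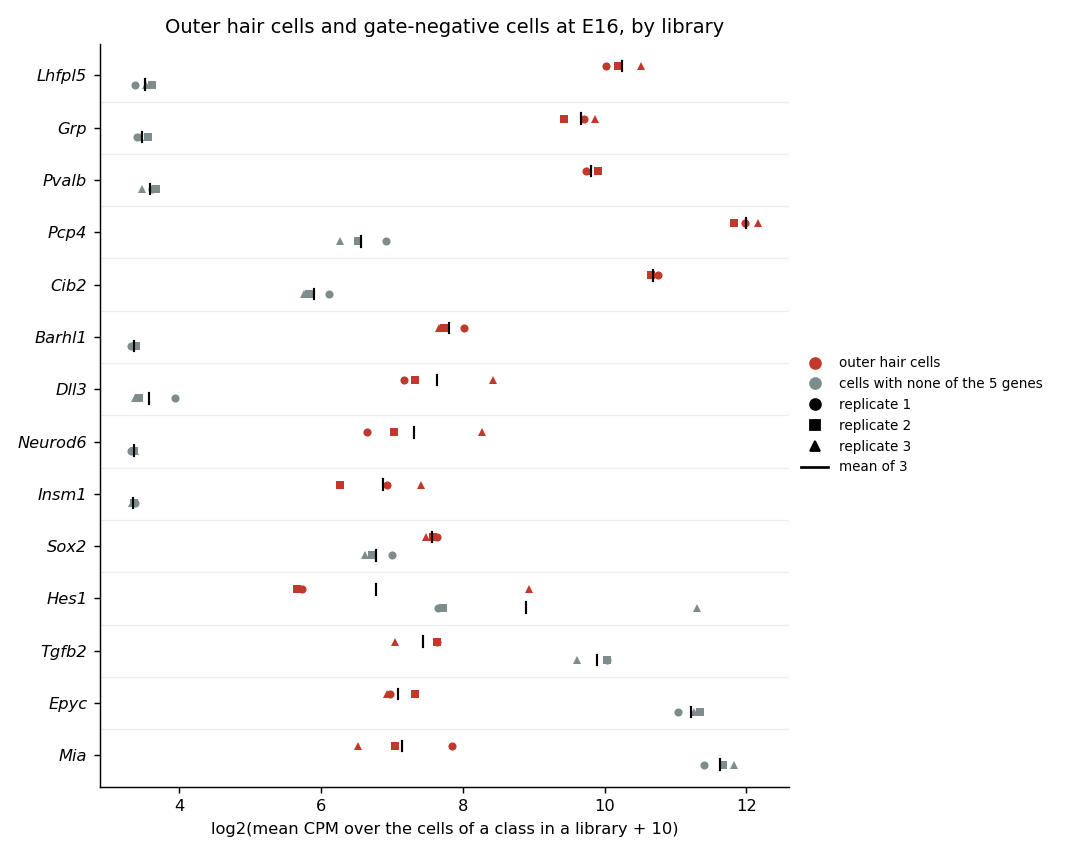
Levels of 14 genes in outer hair cells (red) and in cells with none of the 5 rule genes (grey) at E16, as log2(mean CPM + 10), with 1 point per library (circle, replicate 1; square, replicate 2; triangle, replicate 3) and a black bar for the mean of 3. Lhfpl5, Grp and Pvalb lie near the lower limit of the scale in gate-negative cells, and Hes1 is far higher in replicate 3 than in replicates 1 and 2 in both classes.

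Promoters of genes that rose are shown for 2 sets. The first set is Lhfpl5 and Dll3, named above, whose RefSeq promoters (GRCm38.p6, the 250 bases before the annotated start) hold the E-box CAGCTG, a palindrome of the kind that basic helix-loop-helix factors such as Atoh1 bind, here in capitals:
Lhfpl5 chr17:28575469-28575718, plus strand: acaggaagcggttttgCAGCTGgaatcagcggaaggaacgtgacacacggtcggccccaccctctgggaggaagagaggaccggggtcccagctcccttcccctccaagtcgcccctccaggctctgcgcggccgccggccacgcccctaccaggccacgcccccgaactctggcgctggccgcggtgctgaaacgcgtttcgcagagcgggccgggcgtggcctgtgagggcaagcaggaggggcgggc
Dll3 chr7:28301786-28302035, minus strand: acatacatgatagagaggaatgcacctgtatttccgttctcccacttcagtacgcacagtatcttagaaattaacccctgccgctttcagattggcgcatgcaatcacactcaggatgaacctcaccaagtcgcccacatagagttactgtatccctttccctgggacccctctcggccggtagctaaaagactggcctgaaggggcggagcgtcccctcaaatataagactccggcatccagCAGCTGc
The letters begin 234 bases before the start in Lhfpl5 and 7 in Dll3. Genes that rose and genes that fell held it at similar shares. CAGCTG occurred in 13% of all 32851 promoter windows and in 11.1% of windows of the genes tested (987 of 8853). It was in 15.3% of windows of genes higher by more than 2 on the log2 scale (40 of 262) and in 17.2% of those lower by as much (26 of 151). It was 1 of 15 letter strings searched on both strands, and it also fits the looser string CANNTG, found in 66.2% of all windows.

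Genes of synaptic release and calcium handling were also among those higher in OHCs. Of 17 ribbon and exocytosis genes tested, 13 were higher and 1, Snap91, lower. Through the OHCs alone passed 9, and of the 8 at 10 CPM or more in both classes 4 were higher and 1 lower. Nrxn3, a presynaptic adhesion molecule, had 248, 249 and 241 CPM in OHCs and 12.98, 14.4 and 14.1 CPM in gate-negative cells (3.43 ± 0.17 on the log2 scale, limma adjusted p = 6.26e-12). Otof, the calcium sensor of HC exocytosis, was at 57.4, 26.1 and 47.6 CPM against 1.45, 0.602 and 0.136 CPM (2.28 ± 0.26, limma adjusted p = 5.51e-07). Of 15 calcium buffers and pumps, 11 were higher and Calb1 and S100b lower, and of the 10 at 10 CPM or more in both classes 6 were higher. Pvalb (chr15:78191114-78206400, minus strand), the buffer parvalbumin, had 841, 954 and 857 CPM against 2.31, 2.70 and 1.09 CPM (6.21 ± 0.16, limma adjusted p = 1.41e-16). Calbindin, the product of Calb1, is also a marker of Kölliker's organ, and the gene had 106, 118 and 71.6 CPM in OHCs against 569, 842 and 695 CPM. Of 24 listed channels and receptors 6 passed the filter, 5 of them through the OHCs alone, and these 5 had to be higher, so they are given for their levels. Chrna9 and Chrna10 encode the 2 subunits of the acetylcholine receptor through which efferent fibres act on OHCs. Chrna9 had 64.8, 103 and 175 CPM against 0, 0 and 0.357 CPM (3.52 ± 0.25, limma adjusted p = 9.51e-10), and Chrna10 had 66.7, 73.5 and 98.1 CPM against 1.59, 0.448 and 0.654 CPM (3.02 ± 0.24, limma adjusted p = 3.3e-09). P2rx3, an ATP-gated channel, had 64.9, 116 and 184 CPM against 0.572, 0.826 and 0.337 CPM (3.53 ± 0.26, limma adjusted p = 1.15e-09). Chrna9, Chrna10 and P2rx3 were not called by limma between OHCs and Fgf8-positive HCs.

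Genes of the motile-type axoneme were another set. HCs carry a kinocilium, a true cilium that guides the orientation of the bundle and is later lost from cochlear HCs. Of 22 axoneme and kinocilium genes tested, 18 were higher in OHCs and none lower by limma. Through the OHCs alone passed 14 of the 18, and of the 8 at 10 CPM or more in both classes 4 were higher, while 13 of 35 listed genes were too low to test. Dynlrb2, a dynein light chain, had 163, 159 and 118 CPM in OHCs and 2.14, 1.91 and 2.26 CPM in gate-negative cells (3.68 ± 0.21 on the log2 scale, limma adjusted p = 4.61e-11). Dnaic2, a dynein intermediate chain, had 94.9, 96.9 and 77.9 CPM against 0, 0.7 and 0.116 CPM (3.28 ± 0.23, limma adjusted p = 6.38e-10), and Mlf1 had 232, 265 and 155 CPM against 24.8, 24.03 and 6.51 CPM (3.04 ± 0.18, limma adjusted p = 6.51e-11). Cfap52, a ciliary protein, was at 0 in all gate-negative profiles and at 34.9, 12.99 and 17.6 CPM in OHCs, which is at least 132-fold higher, taking 3 UMIs over all gate-negative cells as the limit. Foxj1, the factor that switches on motile cilia genes, was higher at 24.8, 27.4 and 45.99 CPM against 3.87, 3.46 and 3.37 CPM. The second set of promoters belongs to these genes. GTTGCC is part of the X-box that RFX factors bind, and the windows of Dnaic2, Dynlrb2 and Mlf1 are shown with it, or with its reverse complement GGCAAC, in capitals:
Dnaic2 chr11:114727169-114727418, plus strand: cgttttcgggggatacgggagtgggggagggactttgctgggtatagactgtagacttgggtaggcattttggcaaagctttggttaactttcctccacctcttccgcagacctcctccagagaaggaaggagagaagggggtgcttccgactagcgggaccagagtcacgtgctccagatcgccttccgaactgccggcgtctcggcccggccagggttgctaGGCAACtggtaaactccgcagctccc
Dynlrb2 chr8:116504765-116505014, plus strand: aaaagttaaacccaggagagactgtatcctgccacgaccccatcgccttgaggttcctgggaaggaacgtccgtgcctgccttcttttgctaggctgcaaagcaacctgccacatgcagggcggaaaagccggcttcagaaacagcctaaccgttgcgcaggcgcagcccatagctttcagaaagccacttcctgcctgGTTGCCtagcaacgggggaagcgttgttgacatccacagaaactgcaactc
Mlf1 chr3:67373847-67374096, plus strand: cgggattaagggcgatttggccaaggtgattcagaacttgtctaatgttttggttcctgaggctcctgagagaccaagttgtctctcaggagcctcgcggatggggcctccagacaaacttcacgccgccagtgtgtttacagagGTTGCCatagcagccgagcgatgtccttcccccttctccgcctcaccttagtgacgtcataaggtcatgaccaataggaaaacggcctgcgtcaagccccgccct
The capitals begin 26, 51 and 105 bases before the start. GTTGCC or its reverse complement was in 8 of 20 windows (40.0%) of the axoneme genes that were higher, of which 15 of 18 matched a window, and in 15 of 37 windows (40.5%) of all listed axoneme genes. All windows held it in 10.4%, and those of genes higher by more than 2 on the log2 scale in 11.8%. The higher axoneme genes thus held it about as often as the listed axoneme genes as a whole, which include those not called. Rfx1 and Rfx3 were among the 19 higher transcription factors, and Rfx2 did not pass the filter. Any part of RFX factors in the rise of axoneme genes was not tested.

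OHCs still carried several transcripts of the prosensory domain. Of 27 supporting and prosensory genes tested, 11 were higher than in gate-negative cells and 9 lower, 2 of the lower ones having passed through gate-negative cells alone. Sox2, the factor of the prosensory domain, had 188, 181 and 168 CPM in OHCs and 118, 94.8 and 88.6 CPM in gate-negative cells (0.78 ± 0.14 on the log2 scale, limma adjusted p = 0.00022). Fgfr3, a receptor of the lateral domain, had 155, 156 and 119.6 CPM against 49.4, 42.6 and 17.5 CPM (1.79 ± 0.19, limma adjusted p = 2.14e-07), and Prox1, a homeobox factor of the same domain, had 102, 75.2 and 45.3 CPM against 43.4, 26.5 and 8.28 CPM (1.30 ± 0.21, limma adjusted p = 4.31e-05). Gate-negative cells come from the whole duct floor, and all 3 genes were above them in each library. In OHCs with all 5 rule genes Sox2 had 82.6, 130 and 135 CPM, in replicate 1 below the gate-negative level. Tgfbr1, a TGFβ receptor of the lateral domain, had 50.3, 85.04 and 38.3 CPM against 84.9, 67.6 and 45.05 CPM, which overlap (-0.18 ± 0.20, limma adjusted p = 0.533). Fzd9, a Wnt receptor, had 80.2, 138 and 205 CPM against 51.2, 50.3 and 45.2 CPM (1.27 ± 0.21, limma adjusted p = 7.34e-05). Bmp2, a ligand, was the only higher gene of 19 in the TGFβ and BMP list, at 75.8, 75.4 and 114 CPM against 20.8, 7.55 and 5.21 CPM (2.26 ± 0.25, limma adjusted p = 5.52e-07), and 9 were lower, 4 of which passed the filter through gate-negative cells alone. Of the 14 at 10 CPM or more in both classes, Bmp2 among them, 5 were lower and 8 not called. Sox9, a factor of supporting cells, was lower at 91.3, 72.9 and 42.1 CPM against 352, 327 and 327 CPM (-2.18 ± 0.16, limma adjusted p = 1.34e-09), as was the gap junction gene Gjb2 at 26.3, 56.97 and 41.6 CPM against 529, 582 and 744 CPM (-3.64 ± 0.15, limma adjusted p = 4.32e-13).

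The falls were led by the matrix of the tectorial membrane, the sheet that floor cells secrete over the HCs. All 17 tectorial and matrix genes tested were lower, with a median of -3.06. Epyc, a small proteoglycan, had 116, 151 and 112 CPM in OHCs and 2088, 2602 and 2447 CPM in gate-negative cells (-4.14 ± 0.09 on the log2 scale, limma adjusted p = 1.72e-17). Tecta, the tectorin that forms the membrane's core, had 60.7, 61.5 and 58.6 CPM against 632, 546 and 556 CPM (-3.06 ± 0.13, limma adjusted p = 3.28e-13). Tgfb2, a TGFβ ligand, had 189.7, 189 and 122 CPM against 1033, 1042 and 770.4 CPM (-2.45 ± 0.10, limma adjusted p = 2.1e-13). None of the 3 genes overlapped between classes. Of 9 immediate early and stress genes 8 were lower, with a median of -1.06, among them Jun at 168, 242 and 319 CPM against 929, 1164 and 1341 CPM (-2.22 ± 0.09, limma adjusted p = 4.46e-13). Of 13 cell cycle genes that passed the filter none was higher and 6 were lower by limma, 4 of these having passed through gate-negative cells alone. Cdk1, the kinase of mitotic entry, had 0, 1.26 and 0 CPM against 24.2, 22.4 and 15.2 CPM (-1.54 ± 0.26, limma adjusted p = 7.27e-05). Of 9 cell cycle inhibitors 4 were higher, with Cdkn1a, p21, at 244, 237 and 159 CPM against 41.1, 42.7 and 87.1 CPM (1.78 ± 0.22, limma adjusted p = 2.03e-06). The 7 glutamine and tricarboxylic acid cycle genes gave 1 call, Ppat, an enzyme of purine synthesis, at 37.4, 21.3 and 32 CPM against 13.8, 15.7 and 12.9 CPM (0.72 ± 0.24, limma adjusted p = 0.0246), which was not past the threshold without replicate 1 or without replicate 3 (adjusted p = 0.108 and 0.141).

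**Figure D2:**
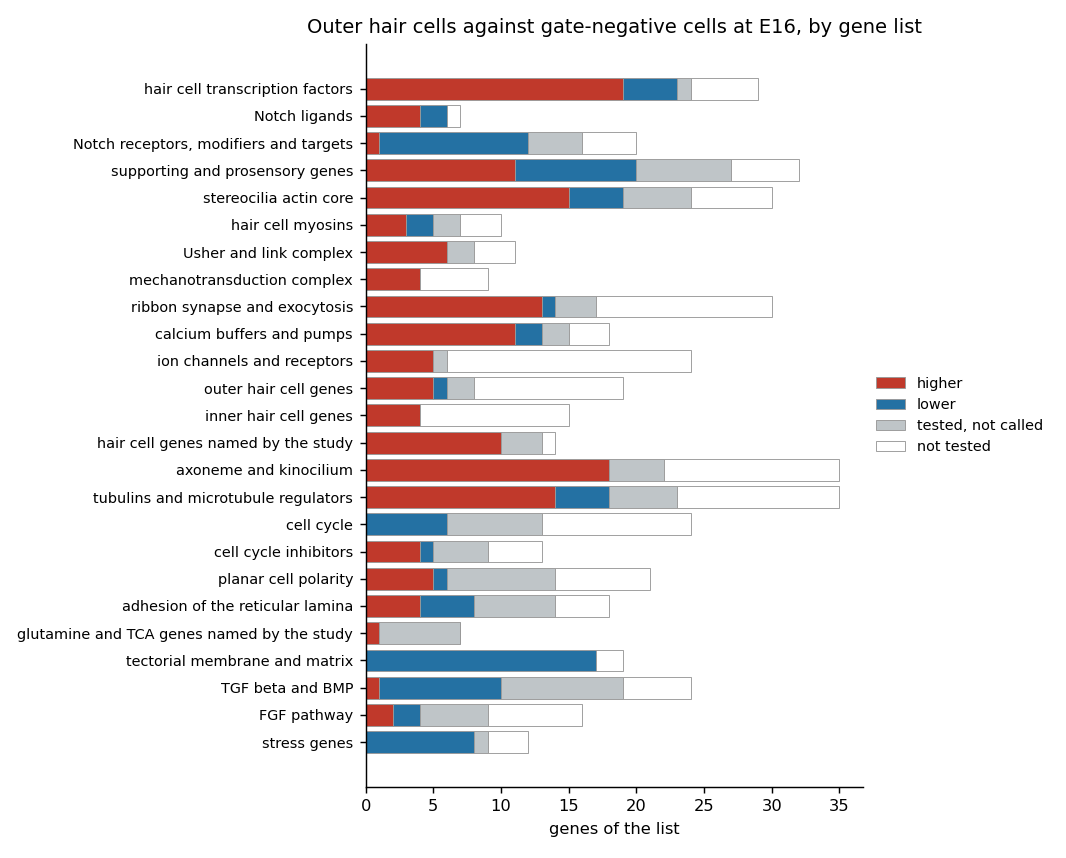
Number of genes of each list that were higher (red), lower (blue), tested and not called (grey) or not tested (white) in outer hair cells against gate-negative cells at E16, by limma with an adjusted p of 0.05. Axoneme genes gave 18 higher, 14 of them under 10 CPM in gate-negative cells, and none lower, tectorial membrane and matrix genes 17 lower and none higher.

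Outside the lists, the largest rise was that of Grp, a neuropeptide gene, which had 827, 681 and 922 CPM in OHCs and 0.598, 1.82 and 0.925 CPM in gate-negative cells (6.20 ± 0.17 on the log2 scale, limma adjusted p = 5.02e-16). Pcp4 (chr16:96467606-96525793, plus strand), Purkinje cell protein 4, had 4042, 3617 and 4568 CPM against 110.5, 82.1 and 67.1 CPM (5.42 ± 0.11, limma adjusted p = 1.24e-17), and the selenoprotein gene Selenom had 3806, 3713 and 4878 CPM against 97.7, 93.9 and 113 CPM (5.21 ± 0.08, limma adjusted p = 1.5e-19). Both were close to ubiquitous in OHCs, as shown further on. Tmem255b, Rasd2, Dlk2, Defb25, Lmo1, Lrrc73 and the long non-coding RNA Miat were also among the larger rises, with differences from 4.39 to 5.41. Among the 10 largest falls outside the lists were the imprinted long non-coding RNA Meg3, at 22.2, 61.7 and 4.08 CPM against 752, 665 and 483 CPM (-4.31 ± 0.23, limma adjusted p = 1.43e-11), the secreted chaperone clusterin, Clu, at 301, 341 and 534 CPM against 3219, 3582 and 7416 CPM (-3.50 ± 0.08, limma adjusted p = 1.45e-17), and the growth factor gene Igf1, at 49.4, 33.2 and 5.45 CPM against 522, 437 and 244 CPM (-3.53 ± 0.18, limma adjusted p = 4.43e-12). The others were Gsn, Rgcc, 1500015O10Rik, Cdo1, Adgrg2, Cyr61 and Efhd1, and no OHC profile overlapped the gate-negative profiles in any of the 10.

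How far these transcripts were shared among OHCs was read from the share of cells with at least 1 UMI, after thinning every cell to 1500 UMIs. Pcp4 was detected in 97.1% of OHCs (99.1% before thinning) against 6.47% of gate-negative cells, Selenom in 94.9% (98.2%) against 12.8%, and Cib2 in 82.04% (92.9%) against 5.87%. Hes6 was detected in 81.8% (94.9%) against 9.76%, and Lhfpl5 in 69.2% (82.9%) against 0.249%. Each of these genes stood far above the gate-negative share, from cells of a median of 2354 to 2700 UMIs. Gate-negative cells are a mixture, and in their Fgfr3/Prox1 cells the shares were 45.7, 14.1, 8.70, 23.9 and 1.09%, in the same order. In Fgf8-positive HCs they were 97.2, 97.9, 81.25, 71.5 and 68.75%, so these transcripts were not particular to OHCs. The 2 early OHC factors were found in far fewer cells. Neurod6 was detected in 18.6% of OHCs (exact 95% interval 15.1–22.5%, 32.6% before thinning), with 7.87, 16.6 and 33.6% in replicates 1, 2 and 3, and in 0.0333% of gate-negative cells. Insm1 was detected in 11.5% (8.73–14.8%, 24.8% before thinning), with 11.8, 7.32 and 18.5% by replicate, and in 0.0166% of gate-negative cells. In the thinned cells 12 OHCs had both, 72 Neurod6 alone, 40 Insm1 alone and 327 neither. Dll3 was found in 22.8% of OHCs (37.5% before thinning) and Sox2 in 20.2% (33.7%), the latter against 9.93% of gate-negative cells.

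**Figure D3:**
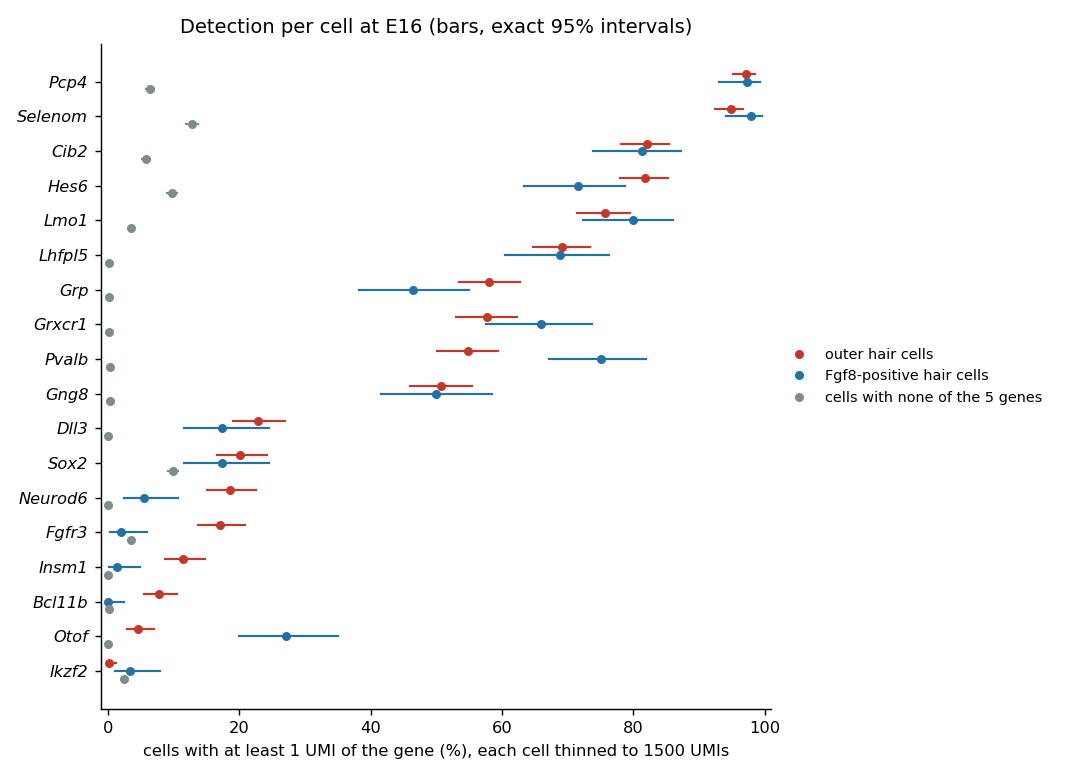
Share of cells with at least 1 UMI of each gene after thinning every cell to 1500 UMIs, in outer hair cells (red), Fgf8-positive hair cells (blue) and gate-negative cells (grey) at E16, with exact 95% intervals that cover counting error only. Pcp4 was detected in 97.1% of outer hair cells and 97.2% of Fgf8-positive hair cells, whereas Neurod6 was detected in 18.6% and 5.56%.

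Levels of some genes within the OHCs differed with the number of rule genes detected, and these values, which follow from the rule and from depth in part, are given without a test. Lhfpl5 had 1419, 1318 and 1705 CPM in cells with all 5 genes, 1036, 661 and 657 CPM in cells with exactly 3, just inside the rule, and 91.1, 31.7 and 0 CPM in the 97 cells with exactly 2, just outside it. Cib2 had 1754, 1969 and 1895 CPM, 1423, 675 and 628 CPM and 405, 131 and 80.01 CPM in the same 3 sets. Sox2 had the opposite order within the rule, at 82.6, 129.7 and 135 CPM with 5 genes, 204, 190.4 and 156 CPM with 4 and 224, 343 and 362 CPM with 3. Epyc, the matrix gene, stood at 132, 154 and 535 CPM in cells with 3 genes and at 690.0, 1934 and 1194 CPM in cells with 2, with 133, 209 and 22.7 CPM in cells with 4, so that in replicate 3 its ratio between 3 and 4 genes exceeded that at the threshold. Neurod6 was at 0 in all cells with 2 genes and had 61.4, 70.7 and 67.5 CPM with 3 and 103, 151 and 396 CPM with 5. Insm1 did not follow the number in every library, at 137, 9.22 and 0 CPM with 2 genes, 107, 38.8 and 142 CPM with 3 and 112, 91.7 and 177 CPM with 5, and nor did Dll3, at 135, 18.4 and 0 CPM, 175, 206 and 326 CPM and 192, 165 and 284 CPM. Fgfr3 was no higher with 5 genes than with 3 in any library. Prox1 had 128, 129 and 83.0 CPM with 3 genes and 94.7, 43.4 and 26.5 CPM with 5. Median UMIs were 2264.5, 4544 and 2923 with 3 genes and 2408, 3592 and 4327 with 5, so depth moved with the count of genes in replicate 3 but not in replicate 2.

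The second comparison set OHCs against the Fgf8-positive HCs of the same libraries, which stand for IHCs, and asked how far the 2 kinds of HC had parted at E16. OHCs carried more transcripts of Zfp503, Cdh1, Bmp2, Fgfr3, Prox1, Neurod6, Insm1 and Bcl11b. Fgf8-positive HCs carried more transcripts of Nefl, Nefm, Otof, Calb2, Anxa5 and 9 of the 26 axoneme genes tested. limma called 135 of 8804 genes higher in OHCs (1.53%) and 151 lower (1.72%), 3.25% in all, and the median of all genes was 0.00. The profiles did not overlap in 13.4% of genes. Without replicate 2, which holds the most cells of both classes, the counts were 44 and 59. The OHC profiles are those of the first comparison, so the comparisons are not independent, and Fgf8 had chosen the classes. For this fit limma took 202 prior degrees of freedom from all genes beside 2 residual ones, so its p-values rest on a spread shared by genes of like level. Hba-a1, a haemoglobin gene, was among those called higher, and the single cell rich in haemoglobin transcripts in replicate 2 is named above.

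Zfp503 (chr14:21983959-21989601, minus strand on mm10), a zinc finger repressor, had 144, 103 and 106 CPM in OHCs and 0, 2.09 and 0 CPM in Fgf8-positive HCs (3.57 ± 0.44 on the log2 scale, limma adjusted p = 1.68e-11), and 2.66, 2.31 and 2.47 CPM in gate-negative cells. Cdh1, E-cadherin, had 272, 211 and 116 CPM against 13.1, 18.1 and 5.26 CPM (3.21 ± 0.36, limma adjusted p = 1.38e-13). Bmp2 had the OHC levels given above against 6.53, 2.82 and 0 CPM (2.91 ± 0.44, limma adjusted p = 1.04e-07). The classes did not overlap in these 3 genes, of which Zfp503 and Bmp2 passed the filter through the OHCs alone and so had to be higher. Cdh1 and Bmp2 were not particular to OHCs and were not called by limma between OHCs and Fgfr3/Prox1 cells. After thinning, Cdh1 was detected in 22.6% of OHCs and 27.2% of Fgfr3/Prox1 cells, and Bmp2 in 9.53% and 8.70%. Fgfr3 had 16.7, 20.9 and 8.12 CPM in Fgf8-positive HCs, so OHCs were higher by 2.63 ± 0.36 (limma adjusted p = 3.87e-09). Prox1 had 16.7, 10.3 and 8.12 CPM there (1.91 ± 0.42, limma adjusted p = 0.000749). This call was lost without replicate 2 (limma adjusted p = 0.11) and when 4 of the 5 rule genes were required (limma adjusted p = 0.0747). Sox2, by contrast, had 162, 227 and 169 CPM in Fgf8-positive HCs, below the OHCs in replicate 1 and above them in replicates 2 and 3 (-0.04 ± 0.23, limma adjusted p = 0.967). Tnnc2, a troponin C, had 132, 154 and 142 CPM against 9.23, 15.7 and 29.3 CPM (2.50 ± 0.36, limma adjusted p = 1.59e-08).

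Of 9 OHC genes tested, Bcl11b, Cdkn1c, Insm1 and Neurod6 were higher than in Fgf8-positive HCs and Lmod3 lower. Bcl11b passed the filter through the OHCs alone and Lmod3 through Fgf8-positive HCs alone, which fixed both directions. Neurod6 had 0, 13.7 and 61.8 CPM in Fgf8-positive HCs (2.63 ± 0.36, limma adjusted p = 2.68e-09), and replicate 3 was highest in both classes. Insm1 had 27.2, 33.1 and 22.1 CPM (1.65 ± 0.36, limma adjusted p = 0.000619), a call lost without replicate 3 (adjusted p = 0.135). Bcl11b, a zinc finger factor, was at 0 in all 3 Fgf8-positive profiles and at 51.4, 58.2 and 44.7 CPM in OHCs, at least 10.4-fold higher. Cdkn1c, the cell cycle inhibitor p57, had 1258, 1295 and 1635 CPM in OHCs against 576, 308 and 401 CPM and 886, 867 and 1097 CPM in gate-negative cells. Lmod3, a leiomodin, was at 0 in OHCs and at 35.3, 27.8 and 7.56 CPM in Fgf8-positive HCs, at least 12.9-fold lower.

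Of 9 IHC genes tested, 6 were lower in OHCs (Cabp2, Ccl21a, Dnajc5b, Fam19a3, Nefm and Otof) and none higher by limma, and 5 of the 9 had passed the filter through Fgf8-positive HCs alone. Otof had 198, 207 and 186 CPM in Fgf8-positive HCs, above OHCs in every library (-1.99 ± 0.30, limma adjusted p = 6.71e-08). Calb2, the buffer calretinin, had 20.2, 22.7 and 63.5 CPM in OHCs against 111, 154 and 178 CPM (-1.89 ± 0.33, limma adjusted p = 5.87e-06). Nefl, neurofilament light chain, had 73.01, 69.2 and 59.4 CPM against 368, 403 and 503 CPM (-2.49 ± 0.24, limma adjusted p = 7.44e-18). OHC means of the 3 genes lay between those of the other classes (for Nefl, 2.91, 1.59 and 0.221 CPM in gate-negative cells). The filter on low values fixed the direction against gate-negative cells for Otof and Nefl. Calb2 was detected in 0.266% of gate-negative cells before thinning. After thinning, Otof, Calb2 and Nefl were detected in 4.66, 3.55 and 8.87% of OHCs and 27.1, 16.7 and 36.1% of Fgf8-positive HCs. Whether the few OHCs with these transcripts were IHCs in which Fgf8 was missed was not tested. Fam19a3 was near 0 in OHCs, at 6.41, 0 and 0 CPM against 50.7, 94.8 and 60.9 CPM (-2.70 ± 0.46, limma adjusted p = 4.11e-06). Brip1, a DNA helicase gene, fell most, with 6.68, 1.46 and 4.07 CPM against 155, 118 and 153 CPM (-3.44 ± 0.41, limma adjusted p = 2.98e-12). Anxa5, annexin A5, had 129, 171 and 241 CPM against 1284, 1072 and 2220.3 CPM (-2.98 ± 0.15, limma adjusted p = 2.65e-45), and Gjb2 had 393, 435 and 109 CPM in Fgf8-positive HCs (-2.47 ± 0.29, limma adjusted p = 2.46e-12). Summed Kölliker's organ markers, Gjb2 among them, were 1542, 1629 and 1266 CPM in Fgf8-positive HCs against 354, 512 and 325 CPM in OHCs, and their part in these differences was not tested.

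Of 28 actin core genes tested Actg1 was higher in OHCs and Grxcr1 and Xirp2 lower. Of 10 Usher and link genes none was called by limma in either direction, nor were any of 7 myosins, 6 Notch ligands or 13 planar polarity genes, counts too small to be set apart from the 3.25% called over all genes. Cib2 had 1664, 1867 and 2094 CPM in Fgf8-positive HCs, a difference of -0.19 ± 0.09 (limma adjusted p = 0.306), and Atp2b2, the bundle's calcium pump, had 57.8, 31.99 and 21.6 CPM in OHCs against 40.7, 40.98 and 29.6 CPM (-0.06 ± 0.41, limma adjusted p = 0.976). The standard error of Atp2b2 does not show that its level was equal. Of 26 axoneme genes tested 9 were lower in OHCs and none higher, with 8 of the 22 at 10 CPM or more in both classes lower. Foxj1 had 76.8, 131 and 59.9 CPM in Fgf8-positive HCs against 24.8, 27.4 and 45.99 CPM in OHCs, and Cfap126 had 183, 228 and 178 CPM against 49.2, 48.1 and 34.7 CPM, with no overlap. Tctex1d1, a dynein light chain gene, had 6.41, 4.75 and 2.30 CPM in OHCs against 96.8, 81.1 and 75.4 CPM (-2.71 ± 0.44, limma adjusted p = 6.27e-07). Calcium buffers went the same way, with 5 of 15 lower (Atp2b1, Calb1, Calb2, Calm2 and Pvalb), and Pvalb had 1615, 1998 and 2188 CPM in Fgf8-positive HCs. Of 6 transduction genes tested, Lhfpl5 was higher in OHCs, Tmie lower and 4 not called by limma. Lhfpl5 had the levels given above in OHCs against 781, 915 and 1084 CPM.

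**Figure D4:**
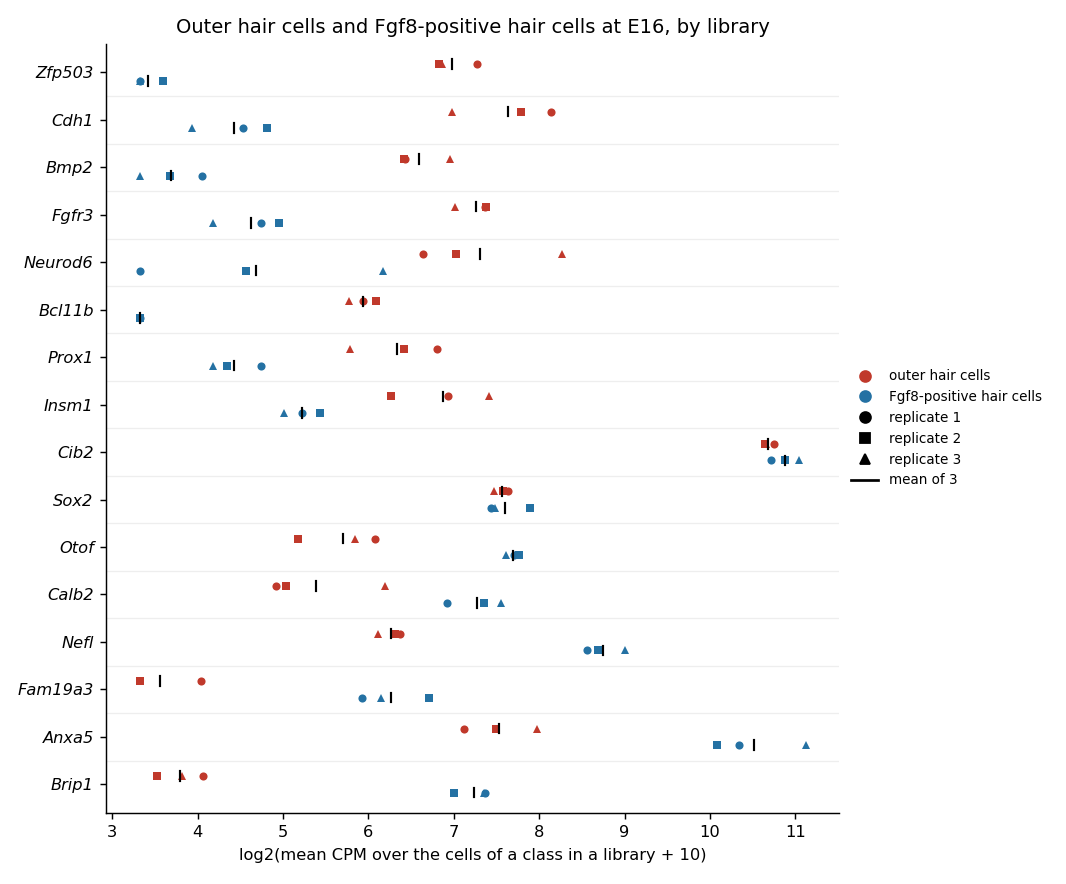
Levels of 16 genes in outer hair cells (red) and Fgf8-positive hair cells (blue) at E16, as log2(mean CPM + 10), with 1 point per library (circle, replicate 1; square, replicate 2; triangle, replicate 3) and a black bar for the mean of 3. Zfp503 to Insm1 are higher in outer hair cells in every library, Otof to Brip1 lower, and Sox2 overlaps.

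The third comparison set OHCs against Fgfr3/Prox1 cells, which have none of the 5 rule genes and carry the 2 markers of the lateral domain where OHCs form. The study found both markers at E16 in inner pillar cells as well as in lateral prosensory cells and OHCs. The class can therefore hold pillar cells, and its genes are not those of progenitors alone. Their pillar and phalangeal markers summed to 5207, 5250 and 5846 CPM, above the sums of OHCs and gate-negative cells given above, and the part of this in the differences was not tested. Fgfr3 and Prox1 had chosen the class and were left out. limma called 490 of 8759 genes higher in OHCs (5.59%) and 305 lower (3.48%), 9.08% in all, and the median of all genes was 0.12. The profiles did not overlap in 25.1% of genes. The Fgfr3/Prox1 class is small, and the counts were 250 and 201 without replicate 2 and 282 and 198 without replicate 3. HC genes were among the largest rises, most of them at or near 0 in Fgfr3/Prox1 cells. Pvalb, Grp and Gng8, a G protein subunit of HCs, were at 0 in all 3 Fgfr3/Prox1 profiles, so OHCs were at least 90.8-fold, 83.3-fold and 62.5-fold higher. Lhfpl5 had 0, 6.77 and 7.36 CPM in Fgfr3/Prox1 cells (6.40 ± 0.36 on the log2 scale, limma adjusted p = 2.83e-12), and Lmo1, a LIM-only cofactor, had 1260.2, 1196 and 1151 CPM in OHCs against 0, 16.05 and 14.7 CPM (6.02 ± 0.36, limma adjusted p = 1.25e-11). Neither overlapped between the classes.

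Of 25 supporting and prosensory genes tested 9 were lower in OHCs, none higher and 16 not called by limma. Sox2 had 489, 538 and 348 CPM in Fgfr3/Prox1 cells (-1.29 ± 0.25, limma adjusted p = 0.000769), so the OHCs lay below these cells and above gate-negative cells as a whole. Tgfbr1 had 185, 308 and 269 CPM there (-1.99 ± 0.36, limma adjusted p = 0.000479). Fzd9 had 239.7, 237 and 471 CPM (-1.12 ± 0.29, limma adjusted p = 0.0135), a call lost without replicate 3 (adjusted p = 0.133). Of 17 genes tested from the list of Notch receptors, modifiers and targets 8 were lower and Mfng again the only one higher. The 8 were Hes1, Hes5, Hey1, Hey2, Lfng, Notch1, Id2 and Id3. Hey1, a Notch target, had 607, 416 and 1039 CPM in Fgfr3/Prox1 cells against 61.6, 62.6 and 63.3 CPM in OHCs, and Hey2 had 67.9, 63.5 and 62.9 CPM against 11.02, 3.49 and 5.73 CPM. The 5 pillar and phalangeal cell markers tested were all lower. Npy, a neuropeptide gene of pillar cells, had 22.7, 86.03 and 0 CPM in OHCs against 504, 511 and 400.0 CPM (-3.92 ± 0.44, limma adjusted p = 5.86e-07). Emid1, which the study names with Npy for inner pillar cells, had 12.02, 31.8 and 7.69 CPM against 285, 252 and 349 CPM (-3.58 ± 0.44, limma adjusted p = 3.03e-06). The largest fall was that of Tm4sf1, a tetraspanin-like membrane protein, at 17.05, 40.1 and 16.04 CPM against 558, 453 and 535 CPM (-4.00 ± 0.37, limma adjusted p = 3.04e-08). Inhba, the activin A subunit, had 6.64, 8.88 and 2.18 CPM against 256, 138 and 148 CPM (-3.56 ± 0.52, limma adjusted p = 2.98e-05). Every gene given with a p in this paragraph kept its 2 classes apart in all 3 libraries. Insm1 was at 0 in all Fgfr3/Prox1 profiles, so OHCs were at least 11.6-fold higher.

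The same rule took 18 and 19 cells at E14, 200, 123, 175 and 371 at P1, and 83 and 98 at P7, which allowed the gated cells to be followed in age. The rule need not take the same kind of cell at each age, since Atoh1 fell to 23.0 and 22.7 CPM and Ccer2 to 53.5 and 60.3 CPM at P7. The P1 profiles were set against the E16 profiles in 1 fit over all ages. Only the 18667 genes analysed at all 4 ages could enter it, of 20818 analysed at both E16 and P1. Insm1 and Neurod6 were among the genes left out. Genes higher at P1 included Calb1, Calb2, Otof and Tomt, and genes lower at P1 included Sox2, Fgfr3, Tmsb4x, Tmsb10 and Stmn1. Mitochondrial transcripts were 1.41%, 1.02%, 1.10% and 1.38% of the UMIs of the median gated cell at P1, below the 3 E16 values given above, and the part of this in the differences was not tested. limma called 691 of 8825 genes higher at P1 (7.83%) and 370 lower (4.19%), and the median of all genes was 0.11. The E16 and P1 profiles did not overlap in 24.3% of genes. Gated cells were deeper at P1, with median UMIs of 5338 to 9448.5 against 2408 to 3847. With all cells thinned to 1500 UMIs the counts were 154 and 89. Without E16 replicate 1 they were 398 and 192, without E16 replicate 2 425 and 190, without P1 replicate 2 435 and 235 and without P1 replicate 3 444 and 248.

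Calb2 rose from 20.2, 22.7 and 63.5 CPM at E16 to 1324, 759.7, 505 and 747 CPM at P1 (4.25 ± 0.34 on the log2 scale, limma adjusted p = 7.98e-08), and Calb1 from 106, 118 and 71.6 CPM to 2712, 1142, 888 and 2055 CPM (3.87 ± 0.32, limma adjusted p = 1.68e-07). Otof rose from 57.4, 26.1 and 47.6 CPM to 275, 359, 346 and 296 CPM (2.66 ± 0.27, limma adjusted p = 1.96e-06), and was at 0 in both E14 profiles. All 3 genes were still low in new OHCs and separated the ages without overlap. Cib2, already high at E16, went from 1710.0, 1593 and 1597 CPM to 3869.5, 5079, 5078 and 4115 CPM (1.46 ± 0.19, limma adjusted p = 3.02e-05), with 439 and 482 CPM at E14. Pla2g7, a phospholipase gene, rose from 2.52, 6.77 and 5.87 CPM to 750.3, 308, 122 and 441 CPM (4.54 ± 0.40, limma adjusted p = 3.43e-07), and Trim45, a tripartite motif gene, from 6.77, 12.01 and 4.29 CPM to 402, 319.9, 252 and 344 CPM (4.27 ± 0.26, limma adjusted p = 5.13e-09). Mycbpap was at 0 in all E16 profiles and at 143, 153, 119 and 223 CPM at P1, at least 87.1-fold higher. In groups, 5 of 15 calcium buffers and pumps, 8 of 20 ribbon and exocytosis genes, 5 of 9 channels and receptors, 3 of 5 transduction genes and 10 of 23 axoneme genes rose. None of these lists held a fall by limma. Of the genes that rose, 3 channels and receptors, 1 transduction gene and 1 axoneme gene had passed the filter through P1 alone. Of 10 OHC genes tested, Insm1 and Neurod6 not among them, 5 rose (Calca, Lbh, Lmod3, Strip2 and Veph1), 4 of which passed through P1 alone. Strip2 went from 0, 12.3 and 2.41 CPM to 95.4, 90.3, 78.2 and 120.0 CPM. IHC genes rose as well, 3 of 5 tested (Kcnj13, Nefm and Otof), 1 of them having passed through P1 alone. The list medians were 1.21 for OHC and 1.72 for IHC genes, but the lists are short and part of each had to rise, so the medians do not rank them. Nefm and Otof were at 10 CPM or more at both ages and rose, so rises were not confined to OHC genes.

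Of 23 supporting and prosensory genes 9 were lower at P1 and none higher by limma. Sox2 fell from 188, 181 and 168 CPM to 49.2, 63.3, 56.3 and 70.8 CPM (-1.44 ± 0.25, limma adjusted p = 0.000719) and stood at 14 and 13.9 CPM at P7. Fgfr3 fell from 155, 156 and 119.6 CPM to 54.5, 29.4, 50.6 and 57.1 CPM (-1.43 ± 0.27, limma adjusted p = 0.00126), with 453 and 376 CPM at E14 and 124 and 181 CPM at P7. Tgfbr1 fell from 50.3, 85.04 and 38.3 CPM to 11.5, 6.59, 13.8 and 15.7 CPM (-1.59 ± 0.32, limma adjusted p = 0.00217), and Prox1 from 102, 75.2 and 45.3 CPM to 17.9, 15.04, 5.20 and 15.1 CPM (-1.83 ± 0.35, limma adjusted p = 0.00174). In cells thinned to 1500 UMIs the last 2 differences were -1.36 ± 0.57 for Tgfbr1 (limma adjusted p = 0.271) and -2.23 ± 0.62 for Prox1 (limma adjusted p = 0.0757), so both calls were lost with the differences still negative. Fzd9 stayed within its range, from 80.2, 138 and 205 CPM to 116, 126, 140.0 and 153 CPM (0.01 ± 0.29, limma adjusted p = 0.99). The haemoglobin genes Hba-a1 and Hbb-bs were also called lower at P1, and 1 E16 cell of replicate 2 held most of the haemoglobin UMIs, as given above. The actin-sequestering thymosins were among the larger falls of other genes. Tmsb4x went from 1424, 1611 and 2089 CPM to 445, 189, 171 and 121 CPM (-2.98 ± 0.36, limma adjusted p = 1.76e-05) and Tmsb10 from 1794, 2059.9 and 1841 CPM to 494, 245, 255 and 186 CPM (-2.74 ± 0.30, limma adjusted p = 6.74e-06). Stmn1, which destabilises microtubules, went from 692, 785 and 1491 CPM to 199.7, 248, 179 and 99.5 CPM (-2.36 ± 0.29, limma adjusted p = 2.59e-05), and the claudin gene Cldn6 from 289, 262 and 526 CPM to 94.4, 74.4, 55.2 and 32.2 CPM (-2.32 ± 0.33, limma adjusted p = 9.18e-05).

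The early OHC factors Insm1 and Neurod6 were not analysed at all 4 ages, so they were outside the fit and are given without a test. Insm1 had 112, 66.9 and 160.2 CPM at E16, 24.7, 46.6, 56.1 and 117 CPM at P1 and 17.5 and 40.2 CPM at P7, so that P1 replicate 4 lay within the E16 range and the other P1 libraries below it. Neurod6 had 89.9, 120.5 and 298 CPM at E16 and 66.6, 167, 186 and 163 CPM at P1, with the ages overlapping. Hes6 had 2952 and 2238 CPM at E14, 1397, 1478 and 1859.8 CPM at E16, 583, 1354, 1723 and 895 CPM at P1 and 53.8 and 44.1 CPM at P7. Genes of the mature OHC had higher values at P7 than at P1. Ikzf2 was at 7.28, 0, 2.85 and 0.229 CPM at P1 and 152 and 259 CPM at P7, Ocm at 106, 56.99, 33.6 and 98.1 CPM and 12461 and 11895 CPM, and Slc26a5 at 0, 0, 0 and 1.81 CPM and 54.03 and 66.04 CPM. Tmc1 had 4.40, 2.60, 0.798 and 1.58 CPM at P1 and 59.5 and 63.6 CPM at P7. Lhfpl5, by contrast, had 1027, 1155 and 1449 CPM at E16, 1399, 1580.1, 1754 and 700.1 CPM at P1 and 1078 and 792 CPM at P7, after 24.9 and 138 CPM at E14, so that its E16 and P1 levels overlapped.

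**Figure D5:**
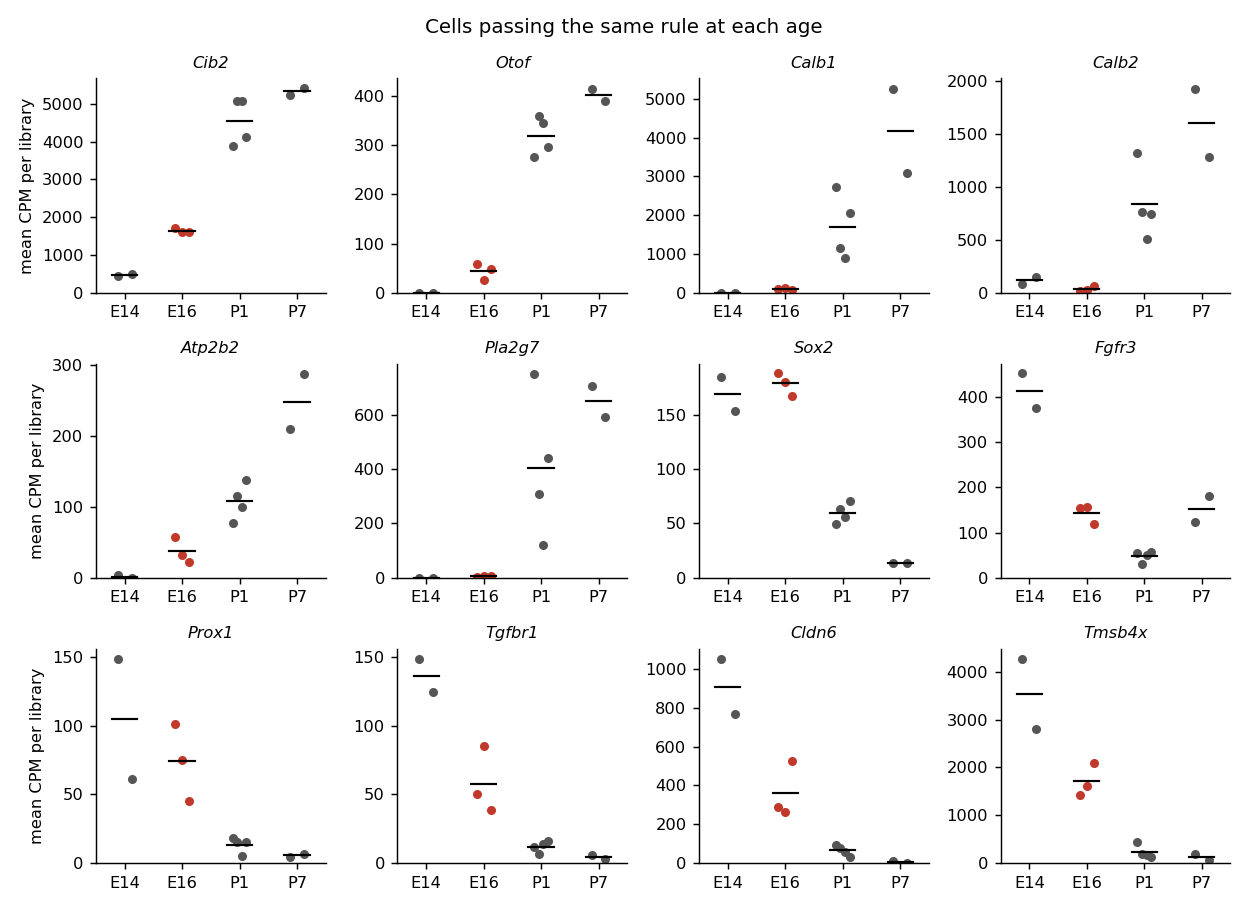
Mean CPM per library of 12 genes in the cells that passed the same rule at E14 (2 libraries), E16 (3, red), P1 (4) and P7 (2), with a bar for the mean of each age; each panel has its own linear axis from 0. Calb1, Calb2, Otof and Pla2g7 are low at E16 and higher in every P1 library, while Sox2, Prox1, Tgfbr1, Cldn6 and Tmsb4x are lower in every P1 library than in any E16 library.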

How the data were processed

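Single-cell 3′ libraries (10x Chromium) of 11 pools of wildtype CD1 cochleae were captured by the authors, who aligned them to mm10 with Cell Ranger 2.1.1 and used Seurat 2.0, per the submitters' processing notes and the study's methods. The deposited values are the natural log of 1 plus 10000 times a gene's share of a cell's UMIs, made by the authors. Each cell's UMIs were recovered from these steps, and 100% of values came out whole within 2%.

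Cells were classed by detection of the rule genes, and replicate numbers and ages came from the labels. The members, gene lists and tests were chosen with earlier results of these data known. For each library and class the profile is the mean CPM of its cells. Genes of 10 CPM or more on average were tested with limma 3.58.1 in R 4.3.3 (empirical Bayes with a trend on log2(CPM + 10), library as a block within E16, no block between ages, Benjamini-Hochberg over all genes tested, threshold 0.05). Libraries are separate pools, so p-values measure the spread between pools. The 7 rule genes were left out, and a profile needed 5 cells. The fit between ages held only genes analysed at all 4 ages. The steps were tested on simulated data. Intervals are exact binomial at 95%, and they and the limit of 3 UMIs for a count of 0 cover counting error only.

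Test statistics are printed for genes taken by a rule. In the first comparison it took up to 4 members of each list with the largest called change that moved 1 way in all 3 libraries, and the 10 largest rises and falls outside the lists, passing over genes of the mitochondrion, ribosome and haemoglobin, Gm numbers, Xist, Tsix and Malat1. In the others it took the 8 largest rises and falls over all genes, passing over the same genes. In every comparison it took 13 fixed genes (Sox2, Insm1, Ikzf2, Neurod6, Atp2b2, Calb2, Tmc1, Otof, Cib2, Fgfr3, Prox1, Tgfbr1 and Fzd9). Genes given by level alone, and the promoters shown, were picked after their values were seen. Genes with near-identical copies elsewhere in the genome, such as Tmsb4x and Tmsb10, are uncertain. Gene positions are those of GENCODE vM21 on GRCm38 and promoters those of RefSeq on GRCm38.p6.

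Scrublet (scanpy 1.11.5) called 2, 1 and 4 E16 cells, under 0.5% of each library, so doublets were in effect not removed. Replicate numbers do not pair E16 with P1 libraries, as deviations from the age means of same-numbered libraries had correlations of 0.03, -0.11 and 0.05 across genes. Alternatives covered the filter, pseudocount, scaling, summed UMIs, the number of rule genes, depth, the block and leaving out each library. No deposited column of per-sample values was left unused.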

Additional observations from a re-analysis of the deposited data

Results flagged for a closer look

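In 25 groups of 4 P1 libraries, 1 library stood apart from the other 3 by more than Dixon's 95% criterion for 2 genes, which chance gives in about 1 of 20 groups. Pgam2, a phosphoglycerate mutase gene, was lowest in gated cells of P1 replicate 4 at 121.8 CPM. Snrpg, a spliceosome gene, was highest in gated cells of P1 replicate 1 at 309.8 CPM.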

How the results depend on the processing

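The number of genes called depended on the settings more than the direction of named genes did. Without the replicate block, the comparison with gate-negative cells gave 1024 higher and 1039 lower genes, and leaving out 1 library gave 1163 to 1390 and 1208 to 1428. Against Fgf8-positive HCs the counts were 70 and 94 without the filter on low values, 67 and 81 with a pseudocount of 1 CPM, 74 and 80 when 4 of 5 rule genes were required, 26 and 44 without the replicate block, and 44 to 118 and 59 to 144 without 1 library. Against Fgfr3/Prox1 cells they were 222 and 167 with a pseudocount of 1 CPM, and 250 to 552 and 198 to 449 without 1 library. For P1 against E16 they were 372 and 205 with 4 of 5 rule genes, 154 and 89 in cells thinned to 1500 UMIs, a setting added after seeing the data, 769 and 472 with a replicate block that the numbers do not support, and 398 to 798 and 190 to 441 without 1 library. The share of OHCs was 6.50% and 6.33% in replicates 1 and 2 with 4 of 5 rule genes, and 6.22% in replicate 2 after thinning. No called gene reversed. Under all alternatives in which they were tested, 121 of 134 named genes kept direction and call in the first comparison, 17 of 25 in the second, 21 of 25 in the third and 19 of 24 between ages. Most named genes had been chosen for a large called change, and for many the filter on low values had fixed the direction. Their stability is thus in part given by the choice and is no separate evidence for them. The genes that changed sign were not called in the fits of the report, and of these Fzd9 against Fgf8-positive HCs was called without E16 replicate 1 (limma adjusted p = 0.00242). Tgfbr1 against Fgf8-positive HCs, also not called in the report, was called without E16 replicate 1 at 1.8506 on the log2 scale (limma adjusted p = 0.00445). The same held for Calb2 against Fgfr3/Prox1 cells at 1.9432 (limma adjusted p = 0.0266). On the log2 scale and without 1 library, Tgfbr1 against gate-negative cells ranged from -0.4223 to 0.0512, Atp2b2, Fzd9 and Sox2 against Fgf8-positive HCs from -0.3023 to 0.0708, -0.0043 to 1.2660 and -0.1650 to 0.0947, and Fzd9 between ages from -0.3197 to 0.3075. Atp2b2 against Fgf8-positive HCs was 0.0421 with summed UMIs and 0.0906 with 4 of 5 genes. Fzd9 between ages was -0.1614 with 4 of 5 genes, -0.0559 with median of ratios scaling, -0.0549 with the replicate block and -0.2935 when thinned. The cause was not tested. Fgf8 dropout, the small Fgf8-positive and Fgfr3/Prox1 classes and 3 libraries limit the precision.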
